A study of Mus musculus with 12 samples.

Results

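Interferon-stimulated genes are the transcripts that a cell switches on after type I interferon binds its receptor, and 9 of them were followed here in mouse liver and subcutaneous fat: Isg15, Ifit1, Ifit2, Ifit3, Irf7, Oas2, Rsad2, Usp18 and Mx1. They were taken by symbol from a count table of 54532 genes, and all 9 passed the expression filter in every comparison. Male mice received, at 10 weeks of age, an AAV8 vector carrying human HKDC1 (hHKDC1 OE) or an AAV8 null vector, both with the TBG promoter, which is active in hepatocytes. Tissue was collected after 16 weeks on a low-fat diet, and bulk RNA sequencing gave 12 libraries, 3 for each vector in each tissue. The control mice therefore carried a vector too, and no group without vector was analysed here, so a level that both vectors share cannot be told apart from the level of an uninjected mouse. The strain is not given in the sources used here. The question was whether liver, the tissue that the promoter targets, or fat held a difference in interferon-stimulated transcripts between the vectors at that time.

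In a cell that meets viral nucleic acid, sensors such as RIG-I and adaptors such as STING lead to the making of interferon alpha and beta. These bind the receptor formed by IFNAR1 and IFNAR2, the kinases JAK1 and TYK2 are activated, and a complex that contains STAT2 and IRF9 binds the interferon-stimulated response element (ISRE) in the promoters of target genes. The products of the 9 genes act at several points of antiviral defence. ISG15 is a ubiquitin-like protein that is attached to other proteins, and USP18 removes it and also dampens receptor signalling. IFIT1, IFIT2 and IFIT3 bind foreign RNA or partner with one another, OAS2 makes the oligoadenylates that activate RNase L, RSAD2 (viperin) makes a nucleotide that stops viral polymerases, and MX1 is a dynamin-like GTPase. IRF7 is the transcription factor that amplifies interferon production.

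In the files' annotation (build GRCm38) all 9 are protein-coding genes. The 3 Ifit genes lie in a row on the plus strand, Ifit2 at chr19:34550694-34576419, Ifit3 at chr19:34583531-34588731 and Ifit1 at chr19:34640871-34650009. Usp18 is on the plus strand at chr6:121245906-121270917. On the minus strand are Isg15 at chr4:156199424-156200818, Oas2 at chr5:120730333-120749853, Irf7 at chr7:141262706-141266481, Rsad2 at chr12:26442746-26456452 and Mx1 at chr16:97447035-97462907.

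The promoter stretches that carry an ISRE core are shown because they are the sequence through which the group is known to be switched on. RefSeq promoter windows of build GRCm38.p6, from 250 bases before the start of transcription to 50 after it, were found for 6 of the 9 genes, with 2 windows for Ifit2. Oas2, Usp18 and Mx1 were not matched. The core was written as GAAANNGAAA and searched on both strands. Each stretch is printed on the gene's own strand, upstream of the start, with the matched bases in capitals; on the reverse strand the core reads TTTCNNTTTC.

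Isg15: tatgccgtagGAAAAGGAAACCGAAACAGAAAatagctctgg
Ifit1: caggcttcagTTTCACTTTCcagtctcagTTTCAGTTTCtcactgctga
Ifit3: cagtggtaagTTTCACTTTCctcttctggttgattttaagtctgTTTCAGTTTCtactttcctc
Rsad2: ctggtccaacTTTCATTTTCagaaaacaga

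The Isg15 stretch lies on the minus strand at chr4:156200865-156200906 and holds 3 overlapping matches between 78 and 57 bases before the start. The Ifit1 stretch lies on the plus strand at chr19:34640775-34640823 with matches starting 104 and 85 bases upstream, and the Ifit3 stretch on the plus strand at chr19:34583363-34583426 with matches starting 156 and 122 bases upstream. The Rsad2 stretch lies on the minus strand at chr12:26456553-26456582, with 1 match that starts 120 bases upstream. The core was present in the windows of 4 of these 6 genes and in 3.99% of the 27025 genes with a RefSeq window. Among other type I interferon-stimulated genes it was found in 24 of 48, and among genes known for their response to interferon gamma in 11 of 21 (52.4%). The gamma-activated sequence, written TTCNNNGAA, which overlaps no match above, was found in Ifit2 alone of the 6, against 9.55% of all genes and 42.9% of the 21 gamma genes. No match in the windows of Irf7 or in the second Ifit2 window says only that these letters are not there, and the map of matches before the start site shows their spacing.

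**Figure D1:**
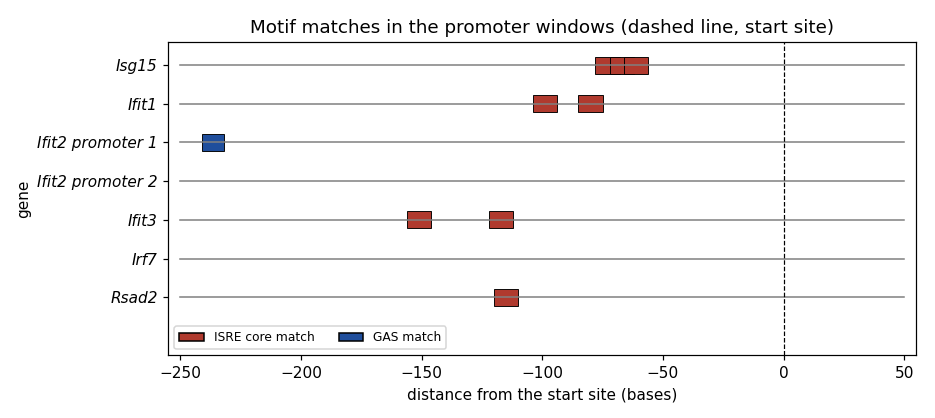
Positions of ISRE core and GAS matches in the 7 RefSeq promoter windows of 6 genes. The horizontal axis is the distance from the start of transcription in bases, each grey line is 1 window, and boxes mark matched bases; all ISRE matches lie between 156 and 57 bases before the start.

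The libraries held between 15496019 and 19954971 counts on genes. The tissue labels were checked against marker lists, in normalised CPM (counts scaled to library size). The summed level of 8 adipocyte markers was 20496 to 30599 CPM in fat and 19.5 to 47.5 in liver, and that of 10 hepatocyte markers 76916 to 116560 CPM in liver and 840 to 8048 in fat. In fat, the 12 B cell markers summed to 3.16, 5.62 and 6.20 CPM in the null libraries and to 59.9, 789 and 1031 CPM in hHKDC1 OE replicates 2, 3 and 1, so replicates 1 and 3 stood apart from the other 4 fat libraries. Replicates 2 and 3 of hHKDC1 OE in each tissue carry a free-text remark calling them knockouts, while their titles and treatment field say overexpression, and the groups follow the latter. Human HKDC1 itself was not analysed here, since the table lists mouse genes. Libraries of 1 group are separate samples by their labels, but no label says which animal each came from, so p-values measure the spread between these samples. In whole tissue, fewer cells of a type and less RNA per cell cannot be told apart.

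Levels were first ordered between genes, on the deposited FPKM scale (fragments scaled by transcript length and library size), which allows a comparison between genes. In null fat Ifit3 had the highest level, 11.7 ± 0.810 FPKM (SD, n = 3), followed by Irf7 at 7.84 ± 2.39 and Isg15 at 5.11 ± 2.52. Mx1 had the lowest, 0.385 ± 0.224 FPKM, below Usp18 at 1.59 ± 0.337. Ifit3 and Mx1 lay outside the range of their neighbour in this order, and every other pair of neighbours overlapped. In null liver the order was different, with Irf7 at 12.3 ± 3.83 FPKM, Isg15 at 8.19 ± 2.85 and Ifit3 at 7.39 ± 2.79 on top and Mx1 at 0.326 ± 0.326 again last. There the only gap between neighbours fell between Usp18, whose lowest library was at 2.42 FPKM, and Rsad2, whose highest was at 2.06. Mx1 had 5 to 60 counts in each null library, so its level in these rests on few reads. In the RefSeq annotation of the reference strain Mx1 is a transcribed pseudogene, while the count table types it as protein coding.

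Fat and liver of null mice were then compared, which gives the standing level of the 9 genes without the transgene. Ifit2, Oas2 and Rsad2 were higher in fat and Usp18 was lower in the quasi-likelihood test of edgeR, with p-values adjusted after Benjamini and Hochberg over 15259 genes. In that comparison 33.8% of all genes were called higher in fat and 30.5% lower. The 3 of 9 called higher lie near the share of genes at large, and the 1 of 9 called lower lies below it. Ifit2 stood at 3.13, 3.70 and 3.00 FPKM in null fat against 0.661, 0.719 and 1.204 in null liver, with a log2 fold change of 1.87 (SE 0.29, adjusted p = 0.000832). Oas2 stood at 1.43, 1.38 and 3.65 FPKM in null fat against 0.156, 0.357 and 1.03 in null liver, with a log2 fold change of 1.99 (SE 0.67, adjusted p = 0.0312). The groups did not overlap for either gene, and null fat replicate 3 carried the highest Oas2 level of all 12 libraries.

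Rsad2 was at 3.05, 2.66 and 2.98 FPKM in null fat and at 2.06, 1.14 and 1.93 in null liver, a log2 fold change of 0.71 (SE 0.25, adjusted p = 0.0393). Usp18 was the opposite, at 1.69, 1.21 and 1.86 FPKM in null fat and 2.42, 2.97 and 5.47 in null liver, a log2 fold change of -1.25 (SE 0.36, adjusted p = 0.0158). Irf7 was also lower in all 3 fat libraries, with 5.08, 9.23 and 9.21 FPKM against 9.40, 10.8 and 16.6, but its adjusted p was 0.0686. For 5 of the 9 genes the tissues stood apart in all libraries, beside 71.6% of all genes. Isg15, Ifit1, Ifit3 and Mx1 had log2 differences of -0.74, -0.68, 0.61 and 0.17 between the tissues, none of which passed. The 2 tissues differ in what makes up their RNA, and with library size alone as the scale the median log2 difference of all genes was 0.98 in place of 0.088. On that scale Isg15, Ifit1 and Irf7 turned positive at 0.15, 0.21 and 0.18, Usp18 lost its call at -0.37, Ifit3 gained one at 1.49, and the split of all calls went from 5163 higher and 4647 lower to 9012 and 2286. Relative to the median of all genes these 4 were low on both scales. Single libraries also decided calls. Oas2 lost its call without null liver replicate 1 or 2 or null fat replicate 3 (adjusted p = 0.0755, 0.111 and 0.0887), Usp18 without null liver replicate 3 or null fat replicate 2 (0.0534 and 0.0657), and Rsad2 without any 1 of 5 of the 6 libraries (0.0514 to 0.0861). Without null liver replicate 1, 2 or 3 respectively Irf7, Ifit1 and Ifit3 gained one (0.0481, 0.0229 and 0.00383), and only Ifit2 was called in every such fit. Ifit3 was also called under 5 of the 9 other alternatives, Irf7 under 2 and Isg15 under 1. Rsad2 lost its call with the 12 libraries in 1 fit (adjusted p = 0.0747).

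In liver none of the 9 genes passed the test between the vectors. In edgeR 0 of 9 passed, beside 0% of all 13351 genes, and 0 had an unadjusted p under 0.05, beside 6.94% of all genes. DESeq2 also called 0 of the 9, beside 0.736% of the genes it adjusted. The levels of 6 genes were higher and of 3 lower with hHKDC1 OE, where 51.1% of all genes were above 0, the median log2 fold change was 0.15 against 0.0064 over all genes, and the groups overlapped for each of the 9, beside 12.5% of all genes that were apart. The count higher moved with single libraries, from 4 of 9 without null replicate 1 (median -0.034) to 9 of 9 without null replicate 3 (median 0.48). All following levels in liver and fat are CPM after TMM normalisation within the tissue.

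Isg15 had the largest difference in liver, with 2.66, 5.34 and 5.70 CPM in null and 5.41, 5.53 and 7.89 in hHKDC1 OE libraries. Its log2 fold change was 0.46 (SE 0.32, adjusted p = 0.835 in edgeR), and 2 SE to either side span -0.18 to 1.11. Null replicate 1 was the lowest of the 6 libraries, and null replicate 3 lay above 2 of the 3 hHKDC1 OE libraries. Mx1 was at 0.43, 0.33 and 1.98 CPM against 1.35, 0.53 and 1.76, and Oas2 at 0.49, 1.17 and 3.41 against 1.91, 2.5 and 1.97. Their spread within a group was as wide as the distance between groups, and their intervals reached from -1.09 to 1.89 and from -0.88 to 1.54 on the log2 scale.

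Irf7, the best counted of the 9, was at 25.3, 30.03 and 46.9 CPM in null liver and at 41.9, 29.9 and 43.9 in hHKDC1 OE liver. Its log2 fold change of 0.18 had the narrowest interval, -0.30 to 0.66, so that a log2 change of 1 in either direction lay outside it. Ifit1 was at 7.29, 4.76 and 11.8 CPM against 7.93, 5.27 and 10.5, a log2 fold change of -0.01 with an interval from -0.72 to 0.70. The remaining genes, Ifit2, Ifit3, Rsad2 and Usp18, had log2 fold changes between -0.21 and 0.15. A p over the threshold does not show that levels were equal, and the intervals give what 3 libraries a group could see.

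The order of the liver libraries did not follow the vector. Null replicate 3 had the highest level for 6 of the 9 genes and hHKDC1 OE replicate 3 for the other 3, and null replicate 3 was among the top pair for 8. Summed over the 9 genes the null libraries held 56.6, 60.8 and 105 CPM and the hHKDC1 OE libraries 78.3, 62.5 and 100.5 CPM. Same-numbered liver libraries deviated together (r from 0.116 to 0.231, over the set limit of 0.1), though no label says that a number marks a pair. With the number as a block edgeR called 17 genes in place of 0, none of them among the 9. The 5 Kupffer cell markers summed to 81.1, 93.7 and 150 CPM in null and to 320, 150 and 148 CPM in hHKDC1 OE liver, and the 8 macrophage markers to 133, 154 and 222 and to 395, 209 and 204 CPM. hHKDC1 OE replicate 1, with the highest of these sums, was highest for 0 of the 9 genes. The part of these cells in the liver levels was not tested.

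**Figure D2:**
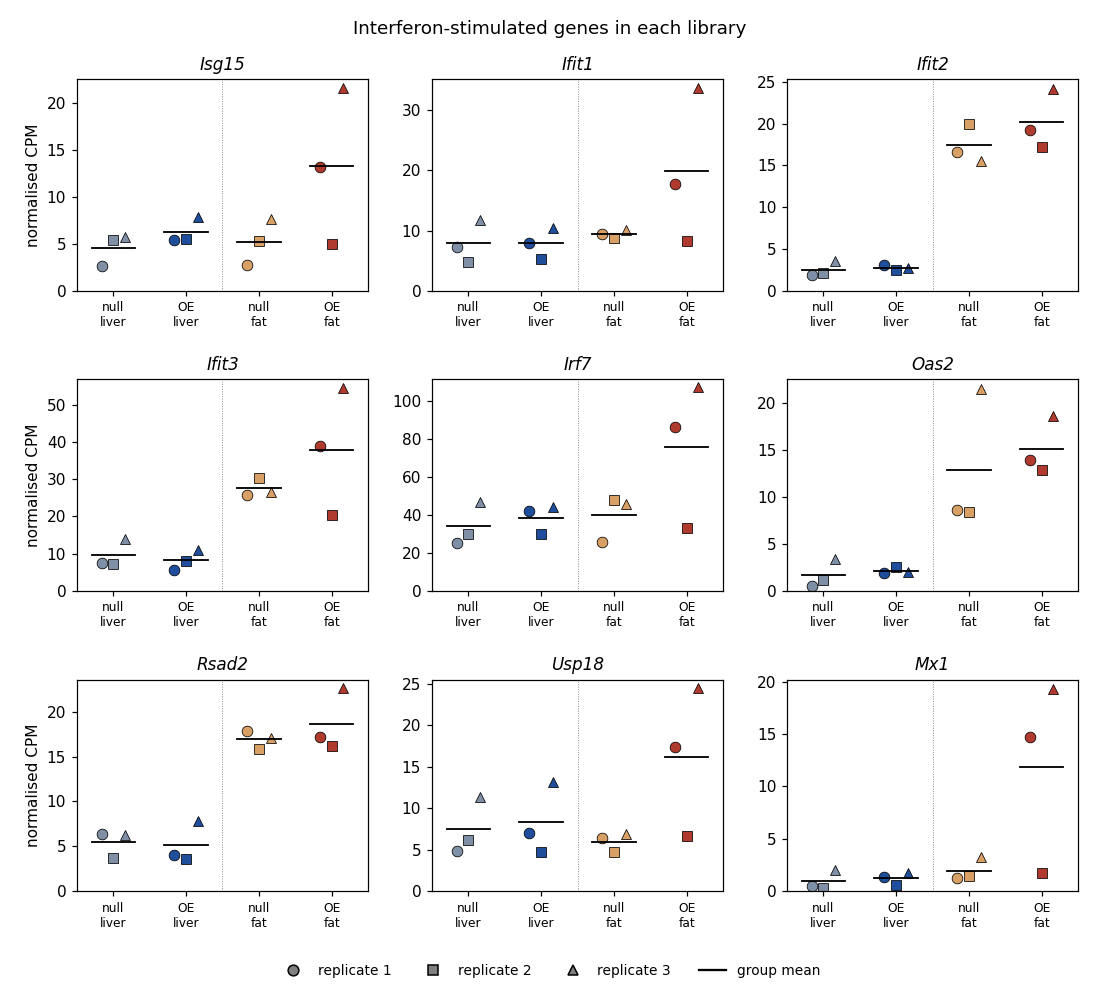
Level of each of the 9 genes in every library. The vertical axis is TMM-normalised CPM (linear, from 0), symbols mark the replicate number, colours the 4 groups and the horizontal bar the group mean; CPM were normalised within each tissue, so heights are to be compared left or right of the dotted line. In fat, hHKDC1 OE replicates 1 and 3 lie above all null libraries for Isg15, Ifit1, Ifit3, Irf7, Usp18 and Mx1 while replicate 2 lies among or below them.

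In fat all 9 genes had a higher mean level in hHKDC1 OE than in null mice, and none passed the test. In edgeR 0 of 9 had an adjusted p under 0.05, beside 0% of all 16380 genes, and 2 (Usp18 and Mx1) had an unadjusted p under 0.05, beside 11.3% of all genes that did so in the higher direction. DESeq2 called the same 2 genes, beside 6.46% of genes called higher. The median log2 fold change of the 9 was 0.92, against -0.045 over all genes, and 46.1% of all genes were above 0. With library size alone as the scale the median of all genes was 0.11 and that of the 9 was 1.06, with all 9 again above 0. In 0 of the 9 did the groups stand apart, beside 12.5% of all genes apart in the higher direction, and for each gene hHKDC1 OE replicate 2 lay inside or under the null range.

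Mx1, the GTPase that blocks influenza viruses in animals with an intact gene, had the largest difference. It was at 1.22, 1.43 and 3.21 CPM in null fat and at 14.7, 1.71 and 19.2 CPM after hHKDC1 OE. hHKDC1 OE replicates 1 and 3 were at 7.53 and 9.86 times the null mean, and replicate 2 was at 0.877 times that mean, within the null range. Its log2 fold change was 2.60 (SE 0.85, adjusted p = 0.202 in edgeR), and the adjusted p by DESeq2 was 0.00750.

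Usp18, the ISG15 protease, was at 6.38, 4.65 and 6.85 CPM in null fat and at 17.3, 6.65 and 24.5 CPM after hHKDC1 OE. Replicate 2 again lay within the null range. Its log2 fold change was 1.44 (SE 0.47, adjusted p = 0.199 in edgeR), with an adjusted p of 0.0313 by DESeq2. Isg15, its substrate, was at 2.68, 5.27 and 7.65 CPM against 13.2, 4.99 and 21.6, a log2 fold change of 1.35 (SE 0.59, adjusted p = 0.292).

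The 3 Ifit genes had unequal estimates. Ifit1 was at 9.48, 8.74 and 10.2 CPM in null fat and at 17.8, 8.21 and 33.8 in hHKDC1 OE fat, a log2 fold change of 1.07 (SE 0.47, adjusted p = 0.293). The null libraries were close to each other, and replicate 2 fell just under them. Ifit3 was at 25.8, 30.2 and 26.6 CPM against 38.9, 20.2 and 54.4, a log2 fold change of 0.46 (SE 0.33, adjusted p = 0.489), with replicate 2 below all null libraries. Ifit2 was at 16.6, 20.03 and 15.6 CPM against 19.2, 17.2 and 24.2, a log2 fold change of 0.22 (SE 0.21, adjusted p = 0.586), and only replicate 3 exceeded the null range. The difference between these genes was not tested. Reads of Ifit3 could be shared with its near copy Ifit3b, which holds 18.5% of the 150-base windows of its transcript, and 1.24% of those of Ifit1 are found in Ifit1bl2.

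Irf7 was at 25.9, 48.0 and 45.9 CPM in null fat and at 86.3, 33.1 and 107 CPM after hHKDC1 OE, a log2 fold change of 0.92 (SE 0.44, adjusted p = 0.323). Oas2 and Rsad2 were the least different of the 9 besides Ifit2. Oas2 was at 8.63, 8.43 and 21.5 CPM against 13.9, 12.9 and 18.6, so that its highest fat library was a null one, and its log2 fold change was 0.23 (SE 0.40, adjusted p = 0.774). Rsad2 was at 17.9, 15.9 and 17.1 CPM against 17.2, 16.2 and 22.6, a log2 fold change of 0.14 (SE 0.20, adjusted p = 0.722) with an interval from -0.25 to 0.53. All these adjusted p come from edgeR.

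**Figure D3:**
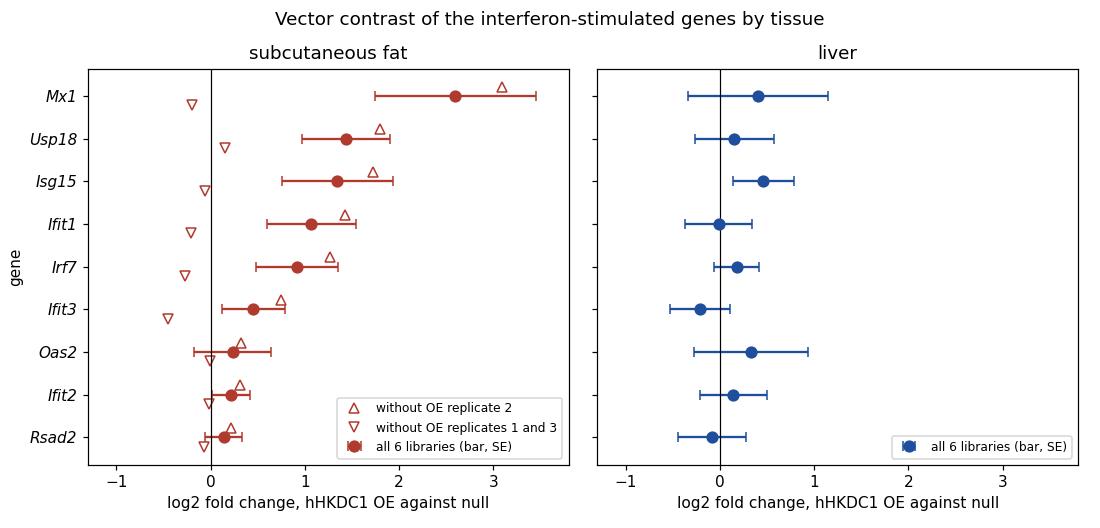
Log2 fold change of each gene, hHKDC1 OE against null, in subcutaneous fat (left) and liver (right). Filled circles and bars are the estimate and its standard error from all 6 libraries of the tissue, and open triangles are fat estimates without hHKDC1 OE replicate 2 (upward) or without replicates 1 and 3 (downward). All 9 fat circles lie above 0, from 0.14 to 2.60, and all downward triangles except that of Usp18 lie at or below 0.

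The fat libraries of 1 group were not alike. hHKDC1 OE replicate 3 had the highest level for 8 of the 9 genes, and its median level over the 9 was 2.68 times the null mean. Replicate 1 was at 1.88 times and above the null range for 6 genes, and replicate 2 at 0.955 times, above the null range for 0 genes and below it for 2. Without replicate 2, edgeR called 6 of the 9 genes higher, beside 11.4% of all genes. These were Mx1 (log2 fold change 3.10, adjusted p = 0.00601), Usp18 (1.80, adjusted p = 0.00689), Ifit1 (1.43, adjusted p = 0.0191), Irf7 (1.27, adjusted p = 0.0229), Ifit3 (0.75, adjusted p = 0.0355) and Isg15 (1.73, adjusted p = 0.0420). Leaving out any 1 of the other 5 fat libraries gave 0 calls among the 9. With replicates 1 and 3 left out, the median log2 fold change of the 9 was -0.068, a value that describes replicate 2 alone against the null libraries and whose direction the choice of libraries fixes. Without replicate 3 alone the median was 0.46.

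Markers of several other cell types were high in the same libraries. The B cell sums are given above, and the 10 T cell markers summed to 6.87, 7.26 and 18.2 CPM in null fat and to 461, 35.5 and 497 CPM after hHKDC1 OE. The 6 markers of lymph node stroma, which include the high endothelial venule gene Glycam1, summed to 5.41, 1.49 and 3.10 CPM against 148, 11.1 and 92.6, with Ccl19 and Chst4 at 0 counts in each null fat library. All 12 B cell markers, 8 of 10 T cell markers and 5 of 8 macrophage markers were apart between the groups, beside the 12.5% of all genes, with macrophage sums of 624, 321 and 691 CPM in null and 1228, 933 and 1504 CPM in hHKDC1 OE fat. The 9 genes summed to 115, 143 and 154 CPM in null fat and to 239, 121 and 326 CPM after hHKDC1 OE, so that both libraries with high sums of the 9 genes are those with high lymphocyte sums. hHKDC1 OE replicate 2 had B and T cell sums above all null libraries and a summed level of the 9 genes within the null range. The part of these cells in the levels of the 9 genes was not tested. Kupffer cell markers summed to 9.30, 5.02 and 14.2 CPM against 354, 27.4 and 235, and neutrophil markers to 5.05, 2.36 and 4.01 against 29.3, 10.7 and 17.3. NK cell markers summed to 3.28, 2.60 and 5.56 CPM against 20.6, 7.48 and 21.1, and those of conventional dendritic cells to 36.5, 35.5 and 41.7 against 75.7, 52.9 and 89.3. The sums for plasmacytoid dendritic cells, known as strong makers of type I interferon, did not have this order, at 82.4, 126 and 5.46 CPM against 69.3, 7.53 and 50.2. Most of that sum was Cox6a2 in null replicates 1 and 2, with 79.5 and 125 CPM, and 3 of the 4 markers tested were higher, Siglech (log2 fold change 3.27, SE 0.97) and Ccr9 (3.16, SE 0.73) in every hHKDC1 OE library. Hepatocyte markers in fat went the other way, with 2645, 2766 and 8048 CPM in null and 2318, 840 and 1235 CPM in hHKDC1 OE libraries.

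**Figure D4:**
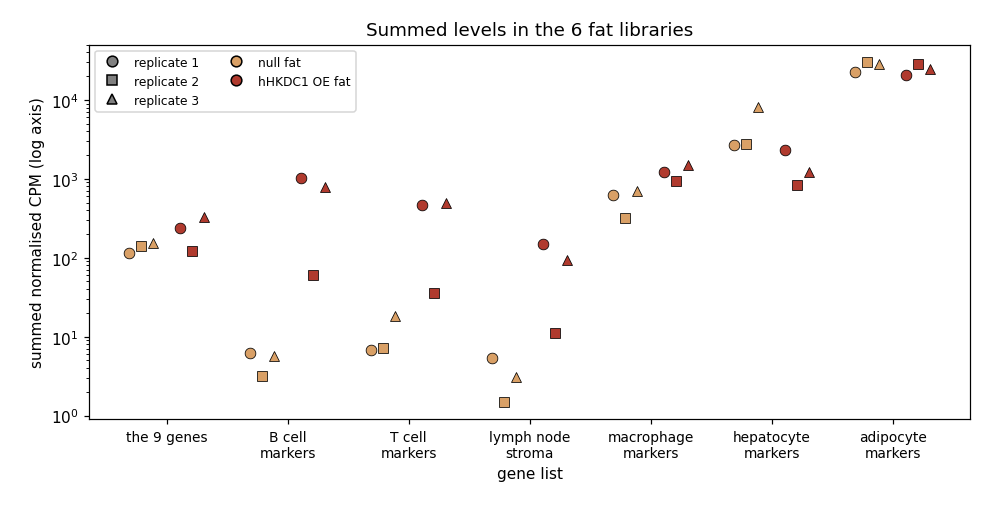
Summed TMM-normalised CPM of the 9 genes and of 6 lists of cell markers in the 6 fat libraries. The vertical axis is logarithmic, symbols mark the replicate number and colours the vector; the 2 libraries with 461 CPM or more of T cell markers are the 2 with 239 CPM or more of the 9 genes.

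Whether the vector contrast differed between the tissues was tested directly. The fat effect minus the liver effect was positive for 8 of the 9 genes and 52.3% of all genes, with a median of 0.82 on the log2 scale against 0.034 over all genes. Without hHKDC1 OE fat replicate 3 it was positive for 6 of 9 with a median of 0.25, and without null fat replicate 1 or null liver replicate 3 the median was 0.45 or 0.52. In edgeR 0 of 9 passed, beside 0% of 17070 genes, and 0 had an unadjusted p under 0.05, beside 12.7%. DESeq2 called 0 of the 9, beside 2.88% of genes. Mx1 had the largest difference of effects, 2.27 (SE 1.23, adjusted p = 0.464), followed by Usp18 with 1.36 (SE 0.70, adjusted p = 0.444), and Oas2 was at -0.02. The effects in fat and liver are thus not shown to differ for any of the 9.

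Upstream of these genes, interferon messages were barely counted. Of 21 interferon genes in the table, 18 had 0 counts in all 12 libraries, Ifnb1 and the interferon alpha genes among them. A count of 0 allows a level of up to 0.1503 to 0.1936 CPM in a library, taking 3 counts as the limit, which covers counting error only. Ifng, made by T and NK cells, had 19 counts in 6 libraries and at most 0.379 CPM, Ifnk 21 counts in 6 libraries and Ifnz 3 counts in 1. None of the 21 passed the filter for a test, so a difference in ligand message could not be tested here. Whether reads of these genes are shared with near copies was not examined.

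The receptor and its signalling chain were well expressed in both tissues. Ifnar1 was at 59.1, 53.3 and 54.0 CPM in null fat and at 59.1, 61.0 and 75.1 in hHKDC1 OE fat, a log2 fold change of 0.23 (SE 0.15, adjusted p = 0.429), and Ifnar2 differed by 0.15 (SE 0.15, adjusted p = 0.608). Irf9 was at 19.9, 20.7 and 31.5 CPM against 46.5, 23.6 and 59.2, a log2 fold change of 0.84 (SE 0.36, adjusted p = 0.281), while Stat2 differed by 0.24 (SE 0.29, adjusted p = 0.673). Irf9 was high in replicates 1 and 3 and inside the null range in replicate 2. None of the 5 receptor and 6 JAK-STAT genes tested was called in fat or in liver by edgeR or DESeq2, with 4 of the 11 higher at an unadjusted p under 0.05 in fat (11.3% of all genes) and 0 in liver (3.89%), and their median log2 fold changes were 0.23 and 0.33 in fat.

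Other parts of the pathway were described by lists that hold none of the 9 genes, with calls by the same test, which called 0 genes of each list in fat. The counts at an unadjusted p under 0.05 stand beside 11.3% of all genes higher in fat, and those by DESeq2 beside 6.46%. Of 59 other type I interferon-stimulated genes tested, 51 were higher, their median log2 fold change being 0.62, 24 of them at an unadjusted p under 0.05 and 16 by DESeq2. The 3 with the largest difference were Ms4a4c (log2 fold change 5.69, SE 1.19), Epsti1 (5.18, SE 1.03) and Slfn1 (4.19, SE 1.07), with adjusted p of 0.133, 0.133 and 0.138 by edgeR. Epsti1 was at 2.07, 2.23 and 5.24 CPM in null and 128, 12.3 and 209 CPM in hHKDC1 OE fat, the library order of the T cell sums. Ms4a4c and Slfn1 are known to be expressed in lymphocytes. Of 32 interferon gamma genes 29 were higher, with a median of 0.77, led by Gbp8 (4.33, SE 1.13), Serpina3g (4.22, SE 1.02) and Ciita (2.35, SE 0.47), the last of which drives MHC class II genes in B cells. Of the 32, 12 were higher at an unadjusted p under 0.05 in edgeR, and DESeq2 called 10 higher. Without hHKDC1 OE replicate 2, edgeR called 27 of the 59 and 14 of the 32 higher, beside the 11.4% given above, and leaving out any other fat library gave 0 calls in both lists. Without replicate 3, 43 of the 59 were higher at a median of 0.41 and 22 of the 32 at 0.44, and without null replicate 1 the gamma median was 0.47. Replicate 2 alone against the null libraries gave medians of 0.060 and 0.013.

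Among 15 sensors and adaptors 12 were higher, their median being 0.75 on the log2 scale, and the largest differences were those of Aim2 (2.65, SE 0.65), Tlr9 (2.41, SE 0.61) and Tmem173 (1.79, SE 0.45), the gene of STING. In 6 of the 15 (Aim2, Tlr9, Tmem173, Mb21d1, Ddx58 and Myd88) all hHKDC1 OE libraries lay above all null ones, beside 12.5% of all genes. Tlr3, a sensor of double-stranded RNA, and Mavs and Tbk1, which act downstream of RIG-I, were lower in every hHKDC1 OE fat library than in every null one, beside 10.2% of all genes, with log2 fold changes of -0.32 (SE 0.18), -0.20 (SE 0.13) and -0.19 (SE 0.13). All 6 other interferon regulatory factors were higher, led by Irf8 (2.63, SE 0.51), Irf5 (1.64, SE 0.38) and Irf4 (1.07, SE 0.50), and Irf8 was at 13.6, 9.12 and 16.2 CPM in null and 115, 28.9 and 97.5 CPM in hHKDC1 OE fat. Irf8 is known as a factor of B cells and dendritic cells. Of 7 negative regulators 6 were higher, with Ptpn6 (3.68, SE 0.72), Socs1 (3.07, SE 0.76) and Socs3 (1.86, SE 0.51) at the top. The 4 genes of ISG15 conjugation were all higher by less, with Ube2l6 at 0.98 (SE 0.39), Uba7 at 0.79 (SE 0.34) and Herc6 at 0.65 (SE 0.31). At an unadjusted p under 0.05 in edgeR, 8 of the 15 sensors and adaptors and 4 of the 6 regulatory factors were higher. So were 4 of the 7 negative regulators and 2 of the 4 conjugation genes, beside 11.3% of all genes. DESeq2 called 4, 3, 3 and 0 genes of these lists higher, beside 6.46%. The part of lymphocytes in these lists was not tested either.

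**Figure D5:**
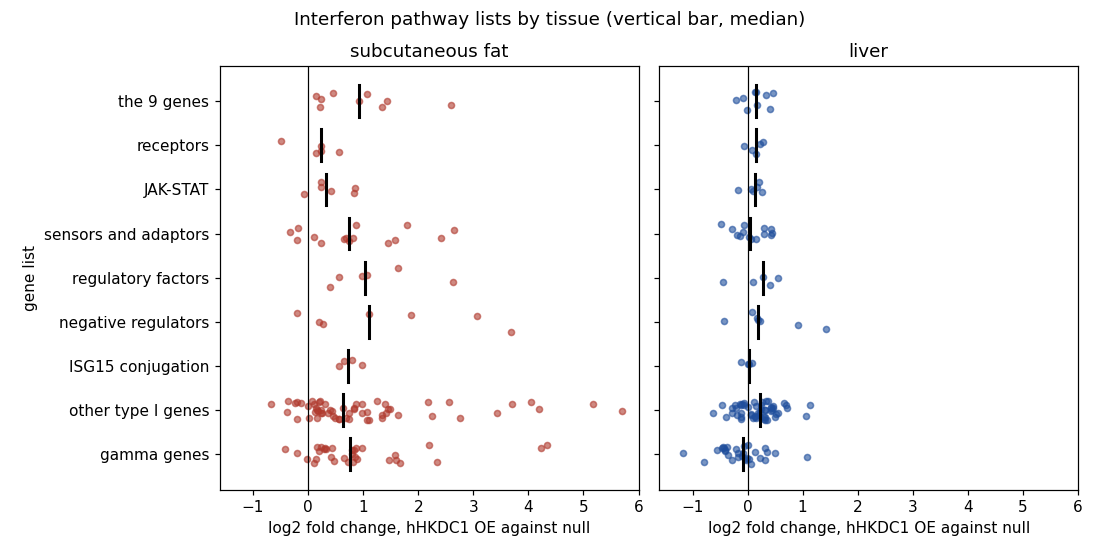
Log2 fold changes, hHKDC1 OE against null, of the 9 genes and of 8 lists of the interferon pathway in fat (left) and liver (right). Each point is a gene that passed the expression filter, vertical bars are list medians, and points are spread vertically for display only; fat medians run from 0.23 to 1.10 and liver medians from -0.091 to 0.28.

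In liver the medians of the same lists lay between -0.091 and 0.28. Of 54 other type I interferon-stimulated genes 38 were higher, their median log2 fold change being 0.22, and 0 were called by edgeR, with 3 higher at an unadjusted p under 0.05 (3.89% of all genes) and 1 called higher by DESeq2 (0.352% of all genes). That gene was Ly6e, a membrane protein gene induced by interferon, at 213, 186 and 185 CPM in null and 471, 215 and 540 CPM in hHKDC1 OE liver. Its log2 fold change was 1.07 (SE 0.30), with an adjusted p of 0.0153 by DESeq2. Oas1b (1.13, SE 0.66) and Oas1c (0.71, SE 0.64) had few counts. Of 30 interferon gamma genes 10 were higher and 20 lower, with a median of -0.091. Neither edgeR nor DESeq2 called any of the 30. At an unadjusted p under 0.05 in edgeR 1 was higher and 2 were lower, beside 6.94% of all genes in either direction. Without null liver replicate 3, 18 of the 30 were higher and the median was 0.065. The chemokine gene Cxcl9 was at 6.79, 11.99 and 22.3 CPM in null liver and 5.10, 7.45 and 5.55 in hHKDC1 OE liver, a log2 fold change of -1.18 (SE 0.38), and Gbp2 was at -0.79 (SE 0.41), while Icam1 was at 1.08 (SE 0.37).

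The 9 genes followed one another from library to library to different degrees. After centring each gene within its tissue, the correlation of a gene with the mean of the other 8 over the 12 libraries was highest for Ifit1 (r = 0.94), Usp18 (0.93), Mx1 (0.92) and Irf7 (0.91) and lowest for Oas2 (0.55) and Rsad2 (0.47). The libraries share their depth and cell makeup with every gene in them, so these values only describe. Of 12754 genes outside the group the 8 with the most similar course over the 12 libraries were Rpl30 (r = 0.95), Socs2 (0.94), Zdhhc13 (0.92), Gbp3 (0.92), Faap20 (0.92), Snhg15 (0.92), Hhex (0.92) and Slc25a45 (0.92). Of these, Gbp3 is on the list of interferon gamma genes. Rpl30, a ribosomal protein gene, had a mean of 75.7 ± 9.11 CPM (SD, n = 3) in null and 273 ± 171 CPM in hHKDC1 OE fat, and of 79.5 ± 47.6 and 84.0 ± 23.9 CPM in the livers.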

How the data were processed

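Liver and subcutaneous fat of male mice were profiled by bulk RNA sequencing, with 12 libraries in 4 groups of 3. The authors' reads from libraries that do not mark strand were mapped with STAR 2.5 and summed by gene in HTSeq 0.6.1, per the labels. They deposited whole-number counts per gene and FPKM values set on their own size factors over all libraries. Tables of their own fold changes, p-values and group means were not used. The methods name a human genome as reference, but the identifiers are mouse Ensembl, and 99.8% of them are in GENCODE M21 (GRCm38). Reads of a gene and its antisense partner cannot be told apart, and Irf7 shares 1.19% and Usp18 4.44% of exon bases with an opposite-strand gene.

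From the counts, each tissue was fitted with edgeR 4.0.16 (TMM, filterByExpr, quasi-likelihood test, R 4.3.3), with Benjamini-Hochberg adjustment over all genes tested and a threshold of 0.05. The test of fat against liver effects used all 12 libraries. Alternatives were DESeq2 1.42.0, limma 3.58.1 on log2 FPKM with pseudocounts of 1 and 0.1, other scalings and filters, a replicate block and each library left out. The scripts were tested on simulated data. In these tests DESeq2 made more false calls than edgeR in each comparison, and it also recovered more of the 200 changed genes. At a simulated log2 change of 2, edgeR recovered 51% of them in fat and 43% for the difference of effects. DESeq2 recovered 70.5% and 61%. The simulated counts took their spread from edgeR's own estimates. Same-numbered liver libraries deviated together (r = 0.231, 0.191 and 0.116), which pairs them by the rule that each exceed 0.1, and those of fat did not (0.031, -0.143 and 0.039).

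Promoter windows were read from a RefSeq table. Genes named beside the 9 come, of each list, from those called or, where fewer than 3 were called, are the 3 with the largest absolute log2 fold change among those tested, with any receptor, ligand or JAK-STAT gene and the 8 genes most correlated with the mean of the 9; Tlr3, Mavs, Tbk1, Mb21d1, Ddx58, Myd88 and markers were named after their values were seen. The 9 genes and all lists were chosen with earlier results of these data known. One gene of the JAK-STAT list is not reported here by name.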

Additional observations from a re-analysis of the deposited data

How the results depend on the processing

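Genes called in fat numbered 0 in the reported fit, 1446 with DESeq2, 803 without a filter on low counts, 876 with the 12 libraries in 1 fit, 168 with a replicate block and 1 with limma on log2(FPKM + 1), and 0 to 3251 with each library left out. In liver they were 0, 94 with DESeq2, 2 with library size alone, 327 without the filter, 17 with the block, 3 and 5 with limma at pseudocounts of 1 and 0.1, and 0 to 146 with each library left out, the highest without hHKDC1 OE replicate 2. For the difference of effects they were 0, 497 with DESeq2, 479 without the filter, 6 with the block and 0 to 1211 with each library left out. The cause of these moves was not tested.

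The median log2 fold change of the 9 genes ranged from 0.46 to 1.27 in fat, from -0.034 to 0.48 in liver, from 0.25 to 1.00 for the difference of effects and from -0.39 to 0.80 between null tissues when each library was left out. Between null tissues it was 1.06 with library size alone and -0.54 with at least 10 counts in every library, which leaves out Oas2 and Mx1. Without hHKDC1 OE fat replicates 1 and 3 (chosen after seeing the data, with 1 hHKDC1 OE library left, assumed to vary like the null ones), Isg15 was at -0.063, Ifit1 -0.21, Ifit2 -0.017, Ifit3 -0.45, Irf7 -0.27, Oas2 -0.00036, Rsad2 -0.068 and Mx1 -0.19, and the median at -0.068. Ifit1 in liver turned to 0.044 with library size alone and 0.026 with the block, and Oas2 to 0.029 in the difference of effects with limma on log2(FPKM + 1). Between null tissues Isg15, Ifit1 and Irf7 were at 0.15, 0.21 and 0.18 with library size alone.

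With 1 library left out, the following differences, none of which had passed the test, changed sign. In fat Oas2 ranged from -0.040 to 0.80 and Rsad2 from -0.020 to 0.22. In liver Ifit1 ranged from -0.27 to 0.39, Ifit2 from -0.034 to 0.48, Ifit3 from -0.46 to 0.17, Oas2 from -0.11 to 1.35, Rsad2 from -0.52 to 0.12 and Usp18 from -0.34 to 0.60. In the difference of effects Ifit2 ranged from -0.18 to 0.31, Oas2 from -1.04 to 0.41 and Rsad2 from -0.0074 to 0.75, and between null tissues Mx1 from -0.39 to 1.40.

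By the rule that each r exceed 0.1, the replicate numbers paired neither the fat libraries nor the 2 null tissues. Between null fat and null liver r was 0.329, 0.0643 and 0.177 for libraries of the same number. No label says whether the 2 tissues came from the same mice, and the reported tests treat all libraries as separate. The block changed no call of the 9 genes in fat, liver or the difference of effects. Between null tissues the block called Isg15 (adjusted p = 0.0468) and Irf7 (0.0114) in addition, in edgeR. In liver, depth limits Mx1 (5 to 33 counts a library) and Oas2 (8 to 55).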

Other observations

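Between the null tissues, other genes of the pathway were compared in edgeR, where 33.8% of all genes were called higher and 30.5% lower in fat. Of 57 other type I interferon-stimulated genes, 26 were higher and 13 lower in fat, and of 31 interferon gamma genes 14 were higher and 11 lower. With library size alone as the scale these counts were 37 and 5, and 17 and 3, beside 59.1% of all genes called higher. The 3 largest differences of the first list were those of Ifi27l2a (log2 fold change 7.43, SE 0.49), Ifi205 (4.74, SE 0.51) and Slfn5 (3.47, SE 0.21), all higher in fat. The 3 largest decreases in fat were those of Ifitm1 (-3.18, SE 0.48) and Ifitm3 (-2.99, SE 0.21), of a family that hinders virus entry, and of Bst2 (-2.88, SE 0.19), which holds back virus release. Among gamma genes the largest increase in fat was that of Nos2, the inducible nitric oxide synthase, at 7.02 (SE 0.72). The largest decrease was that of Gm4951, at -4.27 (adjusted p = 5.68e-06 in edgeR). The interferon gamma receptor gene Ifngr1 was higher in fat (3.76, SE 0.22), while Stat2 (-1.42, SE 0.23) and Irf9 (-1.02, SE 0.20), whose products complete the complex that binds the ISRE, were lower. Of the 6 JAK-STAT genes tested, 1 was called higher in fat and 2, Stat2 and Irf9, were called lower. Of the 4 genes of ISG15 conjugation, Uba7 was higher (1.34, SE 0.30) and Ube2l6 (-2.39, SE 0.17), Trim25 (-1.502, SE 0.17) and Herc6 (-0.89, SE 0.20) were lower. With library size alone, Stat2 was at -0.52, Irf9 at -0.12 and Herc6 at -0.0043, none of them called, while the other genes named here kept their direction and call.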
